A study of Rattus norvegicus with 17 samples.

Results

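The endothelium of brain vessels controls what passes between blood and brain, and 10 of the transporters and receptors through which it does so were followed in the middle cerebral artery (MCA) of female rats. They are the efflux pumps Abcb1a, Abcg2 and Abcc4, the organic anion carriers Slco1a4 and Slc22a8, the carriers Slc2a1 for glucose and Mfsd2a for lipids, and the receptors Tfrc, Insr and Lrp1. Members were chosen by gene symbol, as probe sets with that symbol alone and, where a gene had several, the brightest. In this way 9 of the 10 were found, with 1 probe set each and a value on all 17 arrays, among 13197 genes measured on every array. No probe set carried the symbol Slco1a4. The probe set named Slco1a2 on the array holds a RefSeq accession that RefSeq now assigns to Slco1a4, so it was added through that accession and is counted apart from the 9.

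RNA of each artery was hybridised to 1 whole-transcript array (Affymetrix Rat Gene 2.0 ST), and every value is a log2 expression value, so a difference of 1 is a 2-fold change. The 5 occluded MCAs and the 6 non-occluded MCAs came from Wistar rats of approximately 250 g with transient MCA occlusion by an intraluminal filament under isoflurane, killed 3 h after reperfusion, and 5 rats gave both arteries. The 6 control MCAs came from healthy rats of the same strain and sex that had no operation, so surgery, anesthesia and occlusion cannot be told apart in a comparison with control. Rats in proestrus, the high estrogen phase, were left out of all groups. All occluded MCAs were right arteries and all non-occluded MCAs left ones, so side and occlusion cannot be told apart either. Each value is 1 artery of 1 rat, with n = 5, 6 and 6.

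Brain endothelial cells are joined by tight junctions, and most solutes cross them only through carriers. Efflux pumps of the ABC family use ATP to return lipophilic drugs and metabolites to the blood, organic anion carriers move conjugated compounds in exchange for other ions, and nutrient carriers let glucose, amino acids and lipids pass down their gradients or with ions. Larger cargo such as iron-loaded transferrin, insulin and lipoproteins binds a receptor and is carried through the cell in vesicles. Some of these genes are also used outside the endothelium. Arachnoid cells of the meninges hold organic anion carriers and efflux pumps, and Insr, Lrp1 and Tfrc are found in many cell types. An MCA segment holds smooth muscle, endothelium, pericytes and adventitia, and can carry remnants of meninges.

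RefSeq promoters (build GRCr8) were at hand for 9 of the 10 members, all but Mfsd2a. Shown here are the 250 bases before the start of the 4 members whose level differed the same way between both arteries in all 5 rats, the 2 that were higher on the occluded side and then the 2 that were lower, each 5′ to 3′ on the gene's own strand. Some of these differences were very small, at 0.0007 for Slc2a1 in rat F10 and -0.03 for Abcb1a in rat F12. Capitals mark 4 short motifs searched on both strands after the values were known: ACGTG, the core of hypoxia response elements and of many E-boxes, the GC box GGGCGG, the CCAAT box CCAAT and the AP-1 site TGANTCA.
Slc2a1, chr5:138002272-138002521, plus strand: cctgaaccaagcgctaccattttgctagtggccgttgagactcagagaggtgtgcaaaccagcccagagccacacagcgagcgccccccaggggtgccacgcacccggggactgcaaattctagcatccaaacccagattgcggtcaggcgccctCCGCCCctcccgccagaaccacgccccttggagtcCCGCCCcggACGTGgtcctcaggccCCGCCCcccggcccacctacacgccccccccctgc
Tfrc, chr11:81690319-81690568, minus strand: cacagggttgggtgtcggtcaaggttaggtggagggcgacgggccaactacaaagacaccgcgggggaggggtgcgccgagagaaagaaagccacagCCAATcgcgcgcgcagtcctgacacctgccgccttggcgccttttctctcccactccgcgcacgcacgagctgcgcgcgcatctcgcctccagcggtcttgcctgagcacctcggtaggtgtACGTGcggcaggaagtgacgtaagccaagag
Abcb1a, chr4:26397649-26397898, minus strand: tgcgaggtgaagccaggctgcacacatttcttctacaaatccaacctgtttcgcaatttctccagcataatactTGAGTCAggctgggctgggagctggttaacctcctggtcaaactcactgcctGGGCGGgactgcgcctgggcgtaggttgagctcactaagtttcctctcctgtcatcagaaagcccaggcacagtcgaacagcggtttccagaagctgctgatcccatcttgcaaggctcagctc
Slco1a4, chr4:176495847-176496096, minus strand: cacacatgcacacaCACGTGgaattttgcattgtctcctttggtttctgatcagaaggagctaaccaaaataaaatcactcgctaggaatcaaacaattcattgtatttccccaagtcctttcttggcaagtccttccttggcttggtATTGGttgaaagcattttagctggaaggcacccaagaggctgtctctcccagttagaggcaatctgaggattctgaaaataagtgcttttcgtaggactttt
Slc2a1 holds 1 ACGTG, which starts 51 bases before the gene, between GC boxes at 60 and 35 bases, with another GC box at 95 bases. Tfrc holds 1 ACGTG at 31 bases and a CCAAT box at 153 bases. Abcb1a has no ACGTG in this window, and holds an AP-1 site at 176 bases and a GC box at 124 bases. The members not shown, Abcg2, Abcc4, Slc22a8, Insr and Lrp1, hold no ACGTG in theirs either. In Slco1a4 the letters ACGTG overlap on both strands as CACGTG at 236 bases, and a CCAAT box lies at 102 bases. Of all 33469 promoters, 16.6% hold ACGTG in the same 250 bases, 30.5% the GC box, 34.0% the CCAAT box and 6.3% the AP-1 site. A match describes letters only and shows no binding.

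The arrays had similar medians of 7.36 to 7.49. Endothelial markers were present on every array, with Cdh5 at 9.70 to 10.59 and Vwf at 10.57 to 11.62. Over the 15 endothelial markers measured, the log2 of the summed level was 13.18 to 13.91 in occluded MCAs, 13.44 to 13.90 in non-occluded MCAs and 13.46 to 13.77 in control MCAs. Over all genes the median log2 difference was -0.02 in occluded and -0.01 in non-occluded MCAs against control, and -0.02 between the occluded and the non-occluded MCAs. Markers of other cells that were higher than in control in both arteries of operated rats were the astrocyte gene Gfap (2.46 in occluded and 1.03 in non-occluded MCAs), the neutrophil gene S100a9 (1.49 and 1.17) and the macrophage gene Cd163 (1.44 and 1.13). Gfap was the only 1 of 7 astrocyte markers called in either comparison with control, and S100a9 the only 1 of 3 neutrophil markers. Of 10 microglia and macrophage markers, 2 were higher and 2 lower in occluded MCAs, and 1 higher and 0 lower in non-occluded MCAs. The part of such cells in the results was not tested. Groups were compared with limma, with p adjusted by Benjamini-Hochberg over all probe sets and a threshold of 0.05, and a gene that passed is said to have been called.

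**Figure D1:**
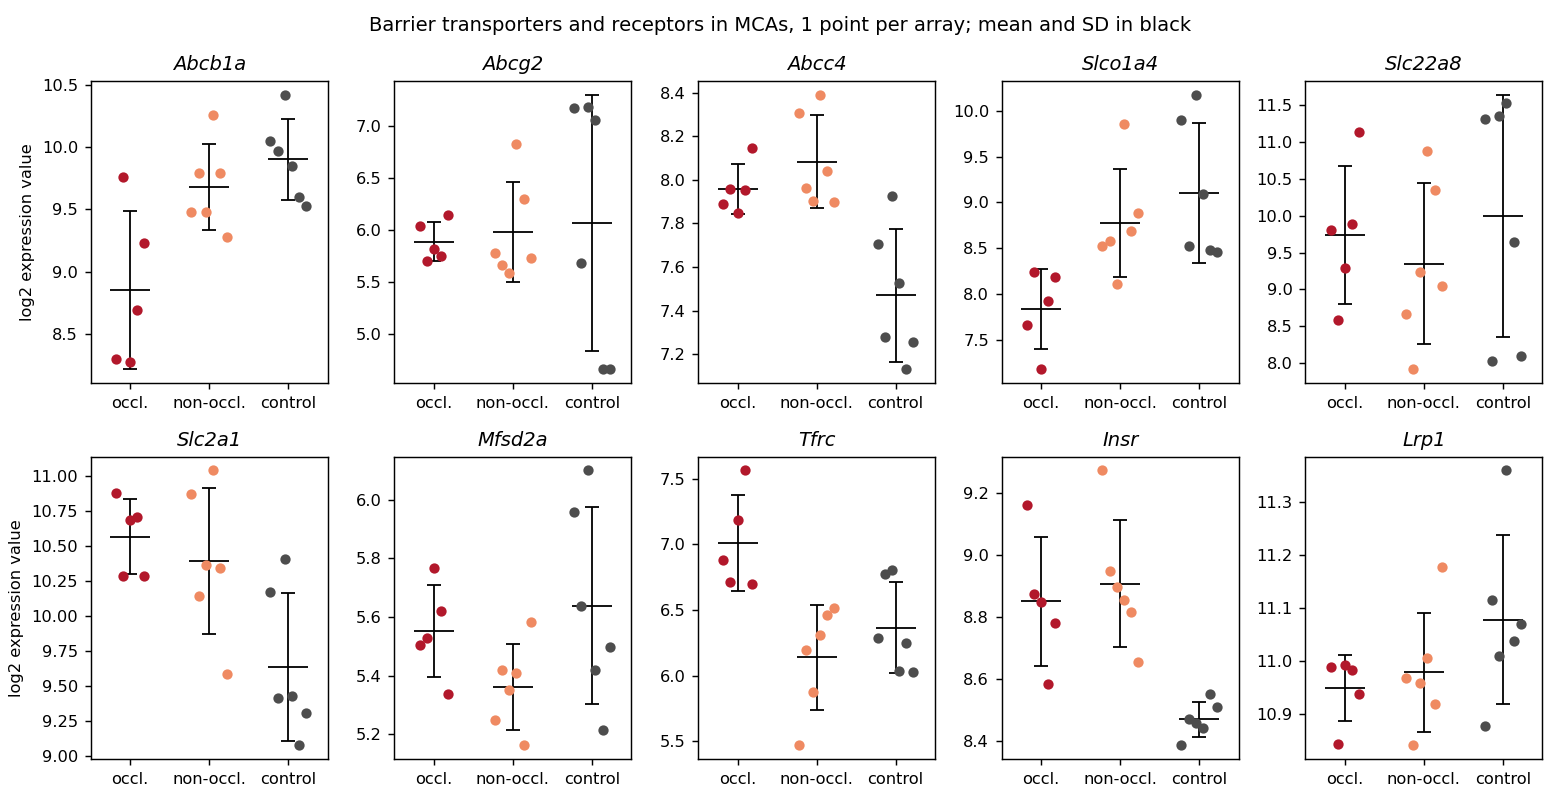
Log2 expression value (vertical axes, scaled to each gene) of the 10 members, with 1 point per array in occluded (n = 5), non-occluded (n = 6) and control MCAs (n = 6), and the mean and SD of each group in black. The occluded MCAs lie low for Abcb1a and Slco1a4, all arteries of operated rats lie above control for Insr, and the control values of Abcg2 and Slc22a8 spread over more than 2 units.

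In the occluded MCAs, 4 of the 9 members matched by symbol were higher than in control, namely Slc2a1, Tfrc, Abcc4 and Insr, and 1 was lower, Abcb1a. Over all genes 19.2% were called higher and 22.9% lower in this comparison. The added Slco1a4 was lower too. Abcg2, Slc22a8, Mfsd2a and Lrp1 were not called. The median log2 difference of the 9 members was -0.09, near that of all genes. In the non-occluded MCAs, 2 of the 9, Abcc4 and Insr, were higher than in control and 0 lower by limma, where 1.79% of all genes were called higher and 2.12% lower. At an unadjusted p under 0.05, 3 were higher and 1 lower. The share of all genes at this looser cut was not counted, here or for the markers below, so such counts have no background beside them. Significance analysis of microarrays (SAM) at a q-value of 0, the kind of test the study used, run anew here, called 1 higher and 0 lower. Over all genes this comparison had 236 higher and 280 lower calls, and 300 higher and 164 lower after each array was centred on its median. Between occluded and non-occluded MCAs, Tfrc was higher and Abcb1a lower, with 17.1% of all genes called higher and 15.8% lower, and Slco1a4 was lower as well. SAM called 0 members in either comparison of the occluded MCAs, so these calls rest on limma. The comparisons with control share the same 6 control arrays.

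Abcb1a encodes the P-glycoprotein of brain endothelium, which pumps a wide range of drugs back to the blood. Its value was 8.30, 9.76, 8.28, 8.69 and 9.23 in the occluded MCAs of rats F10, F12, F15, F33 and F8. In the non-occluded MCAs it lay between 9.28 and 10.25 with a median of 9.63, and in control MCAs between 9.52 and 10.42 with a median of 9.91. In 4 of the 5 occluded MCAs the value was below every control and every non-occluded artery, and the artery of F12 lay within both ranges. The group means were 8.85 ± 0.64 (SD, n = 5) in occluded MCAs and 9.90 ± 0.33 (SD, n = 6) in control MCAs, a log2 difference of -1.05 (SE 0.24, 95% interval -1.56 to -0.54, adjusted p = 0.00201), or 2.07-fold lower. Against the non-occluded MCAs, at 9.68 ± 0.34 (SD, n = 6), the difference was -0.83 (SE 0.24, adjusted p = 0.014). Without the occluded artery of F15 the difference from non-occluded MCAs was -0.68 and not called (adjusted p = 0.0503). Within the 5 rats it was lower on the occluded side in all 5, by more than 1 unit in F10, F15 and F33 (-1.18, -1.20 and -1.10), whereas F12 and F8 differed by -0.03 and -0.05 only. The non-occluded MCAs did not differ from control beyond their spread (-0.22, SE 0.23, 95% interval -0.71 to 0.27, adjusted p = 0.653). In whole arteries, fewer endothelial cells and less RNA per endothelial cell cannot be told apart.

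Slco1a4 is a rodent carrier of organic anions, steroid conjugates and thyroid hormone at the luminal and abluminal face of brain endothelium. Its occluded values were 7.66, 8.24, 7.18, 7.93 and 8.19 (F10, F12, F15, F33, F8). Non-occluded MCAs ranged from 8.11 to 9.85 with a median of 8.64, and control MCAs from 8.46 to 10.17 with a median of 8.81. All 5 occluded values lay below all 6 control values, as was the case for 12.6% of all genes. The 2 control arteries of F16 and F22 and the non-occluded artery of F19 stood high, at 9.85 or more, and the other arteries of these groups lay between 8.11 and 9.09. The mean was 7.84 ± 0.44 (SD, n = 5) in occluded and 9.10 ± 0.76 (SD, n = 6) in control MCAs, a difference of -1.26 (SE 0.34, adjusted p = 0.00579), or 2.40-fold lower. Against non-occluded MCAs the difference was -0.93 (SE 0.34, 95% interval -1.65 to -0.22, adjusted p = 0.0428), and it was lower on the occluded side in 5 of 5 rats, by -0.94 to -0.34. This call was lost on leaving out any 1 of 7 of the 11 arteries (F10, F15 or F33 of the occluded, F8, F12, F19 or F33 of the non-occluded), with adjusted p of up to 0.125 without the occluded artery of F15. The probe set can share signal with near-identical carriers of the Slco1a family.

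Abcb1a and Slco1a4 fell beside part of the markers of endothelium and of other cells of the wall. Of the 15 endothelial markers measured, 6 were lower in occluded MCAs than in control (Ocln, Tek, Cldn5, Tie1, Sox17 and Sox18), 2 were higher (Flt1 and Erg) and 7 were not called, with a median log2 difference of -0.21. For these and the other markers of the wall, the shares of all genes were 22.9% lower and 19.2% higher in this comparison. By limma 0 were called in non-occluded MCAs against control, with 1 higher at an unadjusted p under 0.05 and 0 by SAM. Ocln, a tight junction protein, fell by 1.05 (SE 0.16, adjusted p = 5.29e-05), and its value was 7.37, 8.26, 7.21, 7.39 and 8.00 in the occluded MCAs of F10, F12, F15, F33 and F8 so that the 5 arteries came in the same order as for Abcb1a. Cldn5, the main claudin of the barrier, averaged 9.66 in occluded and 10.64 in control MCAs (-0.98, SE 0.25, adjusted p = 0.00428), with 10.92 in the occluded artery of F12. Cdh5 and Vwf, both among the 7 not called and chosen after their values were seen, differed from control by -0.12 (SE 0.16, adjusted p = 0.593) and -0.01 (SE 0.14, adjusted p = 0.95). Tek, another of the 15 and not a junction gene, differed by -1.12 (SE 0.22, adjusted p = 0.000439), so the list does not part into junction genes that fell and others that did not. Of 8 smooth muscle markers, 5 were lower and 1, Des, higher in occluded MCAs than in control, among them Myocd, the coactivator of contractile genes (-1.18, SE 0.21, adjusted p = 0.000179), and their summed log2 level was 15.00 to 15.16 in occluded, 15.05 to 15.31 in non-occluded and 15.00 to 15.32 in control MCAs. Of 9 pericyte markers, 2 were lower and 2 higher in the same comparison. Pdgfrb, the receptor that pericytes depend on, fell by 1.08 (SE 0.11, adjusted p = 7.21e-07), and the channel genes Kcnj8 (1.73, SE 0.17, adjusted p = 4.48e-07) and Abcc9 (1.07, SE 0.15, adjusted p = 1.65e-05) rose. The summed log2 level of the pericyte markers was 12.44 to 12.80 in occluded MCAs, wholly below the 13.01 to 13.23 of control MCAs, and 12.76 to 13.09 in non-occluded MCAs. The part of these markers in the change of the transporters was not tested.

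**Figure D2:**
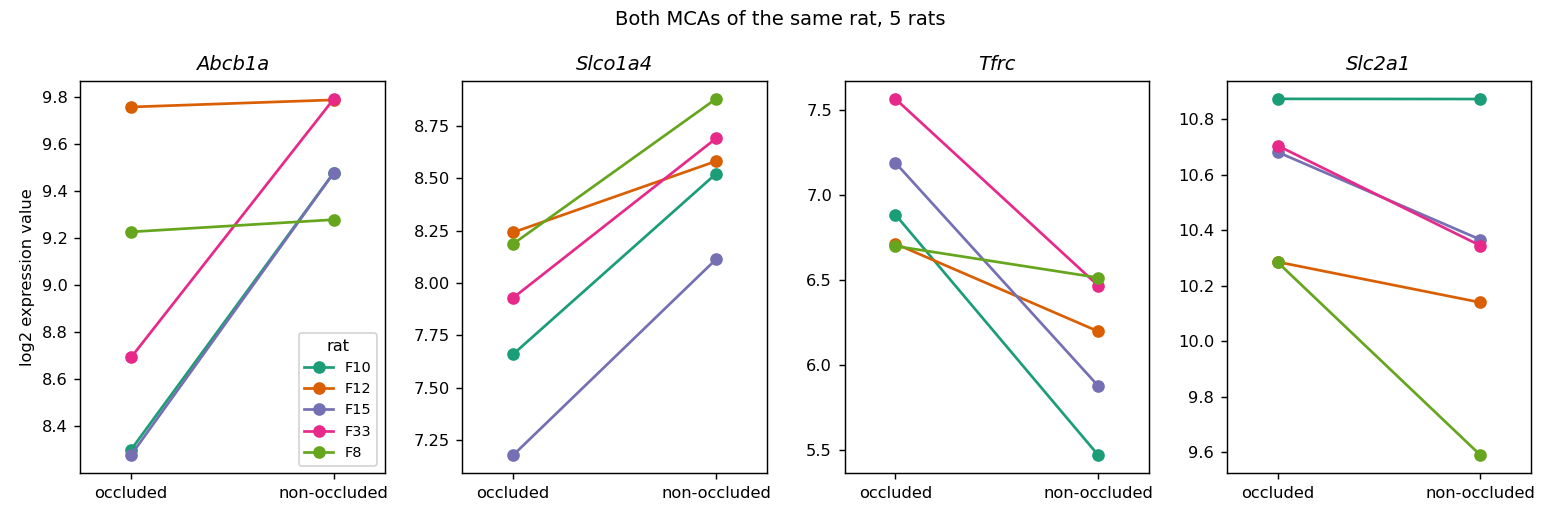
Log2 expression value (vertical axes) of Abcb1a, Slco1a4, Tfrc and Slc2a1 in both MCAs of a rat, the occluded one at the left, with 1 line for each of 5 rats. Abcb1a and Slco1a4 are lower and Tfrc and Slc2a1 higher on the occluded side in every rat, by -0.03 in F12 for Abcb1a and by 0.0007 in F10 for Slc2a1 at the least.

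Abcg2, the breast cancer resistance protein, shares many substrates with P-glycoprotein. Its occluded values were 6.03, 5.70, 5.82, 5.75 and 6.14 (F10, F12, F15, F33, F8). Non-occluded MCAs ranged from 5.59 to 6.82 with a median of 5.75, and control MCAs from 4.66 to 7.18 with a median of 6.37. The control arteries fell apart, with F16, F22 and F26 at 7.06 to 7.18, F21 at 5.68 and both F36 and F4 at 4.66, so that the occluded values lay in the middle of the control range. The difference from control was -0.18 (SE 0.43, 95% interval -1.09 to 0.73, adjusted p = 0.78) in occluded and -0.09 (SE 0.41, 95% interval -0.96 to 0.78, adjusted p = 0.941) in non-occluded MCAs. The intervals leave room for changes of up to about 1 unit. All values of Abcg2 lay below the array medians of 7.36 to 7.49, and whether a low signal hides a change was not tested.

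Abcc4 exports conjugated drugs, nucleotide analogues and prostanoids. It stood at 7.89, 7.96, 7.85, 7.95 and 8.15 in the occluded MCAs, between 7.90 and 8.39 (median 8.00) in non-occluded MCAs and between 7.13 and 7.93 (median 7.40) in control MCAs. Among controls only the artery of F22, at 7.93, reached the values of operated rats. Occluded MCAs averaged 7.96 ± 0.12 (SD, n = 5), against 7.47 ± 0.31 (SD, n = 6) in control MCAs (0.49, SE 0.13, adjusted p = 0.00573). Non-occluded MCAs averaged 8.08 ± 0.21 (SD, n = 6), a difference from control of 0.61 (SE 0.12, adjusted p = 0.0107). The 2 arteries of operated rats did not differ beyond their spread (-0.12, SE 0.13, 95% interval -0.40 to 0.15, adjusted p = 0.51), with Abcc4 lower on the occluded side in 4 of 5 rats.

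Slc22a8, organic anion transporter 3, takes up anionic drugs and metabolites and is used by brain endothelium, choroid plexus and meninges. It was the most variable member, at 9.81, 8.58, 9.29, 9.89 and 11.14 in occluded MCAs, 7.91 to 10.88 (median 9.14) in non-occluded MCAs and 8.03 to 11.53 (median 10.49) in control MCAs. The control arteries of F16, F22 and F26, high for Abcg2, were high here as well at 11.32 to 11.53, and the other 3 lay between 8.03 and 9.65. No comparison was called. The differences were -0.25 (SE 0.70, 95% interval -1.72 to 1.21) in occluded and -0.65 (SE 0.66, 95% interval -2.05 to 0.75) in non-occluded MCAs against control, and 0.39 (SE 0.70, 95% interval -1.07 to 1.86) between the arteries of operated rats. The same 3 control arteries had the highest sums of the 11 fibroblast and leptomeninx markers among controls, 15.21 to 15.34 on the log2 scale, against 14.76 to 14.92 in the other 3. The ranges over groups were 14.67 to 15.17 in occluded, 14.76 to 15.19 in non-occluded and 14.76 to 15.34 in control MCAs. Of these markers 0 were higher and 2 lower in occluded MCAs than in control (Col1a2 and Col1a1), beside 19.2% and 22.9% of all genes. By limma or SAM 0 were called in non-occluded MCAs against control, with 2 lower at an unadjusted p under 0.05. The same 3 control arteries stood above the other 3 also for markers of the choroid plexus (10.61 to 10.82, against 8.93 to 9.57), of astrocytes (12.06 to 12.20, against 10.20 to 10.84) and of microglia and macrophages (11.21 to 11.36, against 10.40 to 10.55). The choroid plexus sums, over 5 markers, were 8.96 to 10.79 in occluded, 9.08 to 10.49 in non-occluded and 8.93 to 10.82 in control MCAs, with the highest occluded value in F8 and the highest non-occluded value in F19, the arteries that were highest for Slc22a8 in these groups. The astrocyte sums, over 7 markers, were 10.71 to 11.76 in occluded, 10.56 to 11.84 in non-occluded and 10.20 to 12.20 in control MCAs. Ttr, which defines choroid plexus epithelium, averaged 6.40 in occluded, 6.02 in non-occluded and 5.79 in control MCAs. These are group means, which do not speak to the spread between arteries of a group. In the sample titles, the 3 control arteries high for Slc22a8 also carry higher leading numbers than the other 3. Among occluded MCAs the artery with the highest such number, F12, was the lowest for Slc22a8. The titles do not say what these numbers stand for. The part of all these markers and of the numbers in the spread of Slc22a8 and Abcg2 was not tested.

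Slc2a1, the glucose transporter GLUT1, supplies the brain with its main fuel and is a marker of barrier endothelium. Its occluded values were 10.87, 10.29, 10.68, 10.71 and 10.28 (F10, F12, F15, F33, F8). Non-occluded MCAs ranged from 9.59 to 11.04 with a median of 10.36, and control MCAs from 9.08 to 10.41 with a median of 9.42. Control arteries F16 and F22 reached 10.17 and 10.41, so the groups overlapped, while the other 4 control arteries lay at 9.43 or below. The mean was 10.57 ± 0.27 (SD, n = 5) in occluded and 9.63 ± 0.53 (SD, n = 6) in control MCAs, a difference of 0.93 (SE 0.26, adjusted p = 0.00675), or 1.91-fold higher. In non-occluded MCAs, at 10.39 ± 0.52 (SD, n = 6), the difference from control was 0.76 (SE 0.24, 95% interval 0.24 to 1.27) and missed the threshold (adjusted p = 0.0975). It was called without the non-occluded artery of F8 (0.92, adjusted p = 0.0404) or without the control artery of F22 (0.91, adjusted p = 0.0443). Between the arteries of operated rats the difference was 0.17 (SE 0.26, adjusted p = 0.647). With the rat as a block, over the 5 rats that gave both arteries, it was 0.30 (adjusted p = 0.0374). That fit also leaves out the unpaired non-occluded artery of F19, the highest of all at 11.04, and without this artery the difference was 0.30 with no block as well, but not called (adjusted p = 0.395). Within rats Slc2a1 was higher on the occluded side in 5 of 5, by 0.0007 in F10 up to 0.70 in F8.

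Mfsd2a carries lysophosphatidylcholine with docosahexaenoic acid into the brain and restrains vesicle traffic in barrier endothelium. It was 5.51, 5.53, 5.77, 5.62 and 5.34 in occluded MCAs, 5.16 to 5.58 (median 5.38) in non-occluded MCAs and 5.21 to 6.10 (median 5.57) in control MCAs. All groups overlapped. The difference from control was -0.09 (SE 0.13, 95% interval -0.37 to 0.19, adjusted p = 0.644) in occluded and -0.28 (SE 0.13, 95% interval -0.54 to -0.01, adjusted p = 0.249) in non-occluded MCAs.

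Tfrc, the transferrin receptor, takes up iron-loaded transferrin and is enriched in brain capillaries. Its occluded values were 6.88, 6.71, 7.19, 7.56 and 6.70 (F10, F12, F15, F33, F8). Non-occluded MCAs ranged from 5.47 to 6.51 with a median of 6.25, and control MCAs from 6.03 to 6.80 with a median of 6.27. Every occluded value lay above every non-occluded value, as it did for 11.6% of all genes, and the control arteries F21 and F22 at 6.77 and 6.80 overlapped the lowest occluded ones. The mean was 7.01 ± 0.37 (SD, n = 5) in occluded and 6.14 ± 0.40 (SD, n = 6) in non-occluded MCAs, a difference of 0.87 (SE 0.21, 95% interval 0.44 to 1.30, adjusted p = 0.00311), or 1.83-fold higher. It was higher on the occluded side in 5 of 5 rats, by 0.19 in F8 up to 1.41 in F10. Against control, at 6.36 ± 0.35 (SD, n = 6), the difference was 0.65 (SE 0.21, adjusted p = 0.0173), and it was not called without the occluded artery of F33 (0.51, adjusted p = 0.0585). In non-occluded MCAs the difference from control was -0.23 (SE 0.20, adjusted p = 0.577).

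Insr, the insulin receptor, carries insulin across endothelium and signals in all cells of the vessel wall. It was the only member for which both groups of operated rats lay wholly above control. The occluded values were 9.16, 8.87, 8.85, 8.59 and 8.78, the non-occluded MCAs ranged from 8.66 to 9.27 (median 8.87), and the 6 control values lay within 8.39 to 8.55 (median 8.47). Such a gap above control was found in 12.6% of all genes in occluded and in 1.35% in non-occluded MCAs. The difference from control was 0.38 (SE 0.10, adjusted p = 0.0048) in occluded and 0.44 (SE 0.09, adjusted p = 0.0158) in non-occluded MCAs, or 1.30-fold and 1.35-fold higher. The arteries of operated rats differed by -0.06 (SE 0.10, 95% interval -0.26 to 0.15, adjusted p = 0.711). Within rats the artery of F10 was the highest and those of F33 and F8 the lowest on both sides.

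Lrp1 binds lipoproteins, proteases and amyloid peptide and is abundant in smooth muscle and fibroblasts. It was 10.99, 10.84, 10.99, 10.98 and 10.94 in occluded MCAs, 10.84 to 11.18 (median 10.96) in non-occluded MCAs and 10.88 to 11.36 (median 11.05) in control MCAs. It was the least variable member across the arrays. The difference from control was -0.13 (SE 0.08, 95% interval -0.29 to 0.03, adjusted p = 0.193) in occluded and -0.10 (SE 0.07, 95% interval -0.25 to 0.05, adjusted p = 0.489) in non-occluded MCAs.

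**Figure D3:**
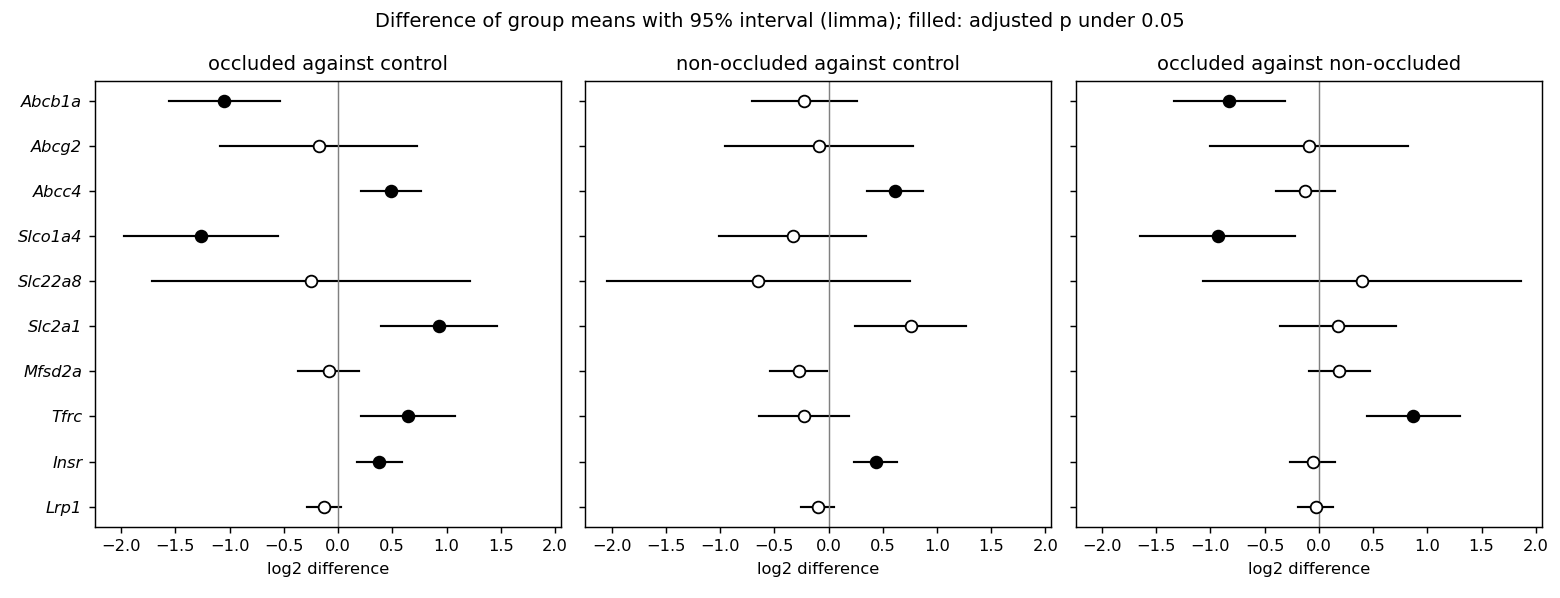
Log2 difference of group means with its 95% interval (horizontal axes) for the 10 members in 3 comparisons, filled where adjusted p was under 0.05 and open where it was not. Abcc4 and Insr are filled in both comparisons with control, Abcb1a, Slco1a4 and Tfrc in both comparisons of occluded MCAs, and the intervals of Abcg2 and Slc22a8 are wide throughout.

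By the order of group means, Abcb1a and Slco1a4 ran from occluded as the lowest over non-occluded to control, with no difference beyond the spread between the last 2. Abcc4 and Insr ran from control over occluded to non-occluded, where the arteries of operated rats did not differ beyond their spread. Slc2a1 ran from control over non-occluded to occluded, and only the 2 ends were called. Tfrc ran from non-occluded over control to occluded, with occluded called against both. No difference between groups was called for Abcg2, Slc22a8, Mfsd2a or Lrp1, though the 95% interval of Mfsd2a in non-occluded MCAs against control did not include 0.

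The members also varied among themselves from array to array. Over the 17 arrays the Pearson correlation of log2 values was 0.855 between Abcb1a and Slco1a4, and 0.716 after the group means were removed. It was 0.856 between Abcc4 and Slc2a1 (0.777 after removal) and 0.777 between Abcg2 and Slc22a8 (0.792 after removal). Abcc4 and Slco1a4 had a correlation of 0.085 over all arrays but of 0.844 within groups. Tfrc and Insr followed none of the efflux pumps within groups as closely. These figures describe 17 arrays, in which 5 rats are present with both arteries, and are given without a test.

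The 3 genes with the pattern most like a member were named by the same correlation over 17 arrays, which includes differences between groups that both genes share. After group means were removed it ran from 0.595 (Tmem140 with Insr) to 0.98 (Slc13a3 with Slc22a8). For Abcb1a they were Slc22a18 (0.934), Tmc7 (0.920) and the tight junction gene Ocln (0.918). Slc22a8 was matched most closely, by the dicarboxylate carrier Slc13a3 (0.977), the sulfate carrier Slc13a4 (0.974) and Capn6 (0.970), and Abcg2 by the prostaglandin F receptor gene Ptgfr (0.914), Ly75 and Epb41l3. Slc13a3, which is also 1 of the 11 leptomeninx markers, was at 10.99, 11.07 and 11.49 in the control arteries of F16, F22 and F26, and at 8.15, 9.59 and 7.59 in F21, F36 and F4. For Abcc4 the nearest were Cd163 (0.896), a scavenger receptor of macrophages, Fkbp5 (0.883), a glucocorticoid-induced chaperone, and Arhgap26. After group means were removed these were at 0.844, 0.705 and 0.615. Cd163 also headed Slc2a1 (0.886), followed by Abcc4 itself and the choline kinase gene Chka (0.844). Among the genes like Tfrc were Bcs1l (0.889), an assembly factor of respiratory complex III, and Tpi1 (0.887), a glycolytic enzyme. Slco1a4 was nearest to Arhgap12 (0.930), Psenen and Stard8, and Insr to RGD1359349 (0.865), Tmem140 and Bcl2l1. For Lrp1 and Mfsd2a the likeness was weaker, with Mmp14 (0.796) and Mir100 in first place.

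**Figure D4:**
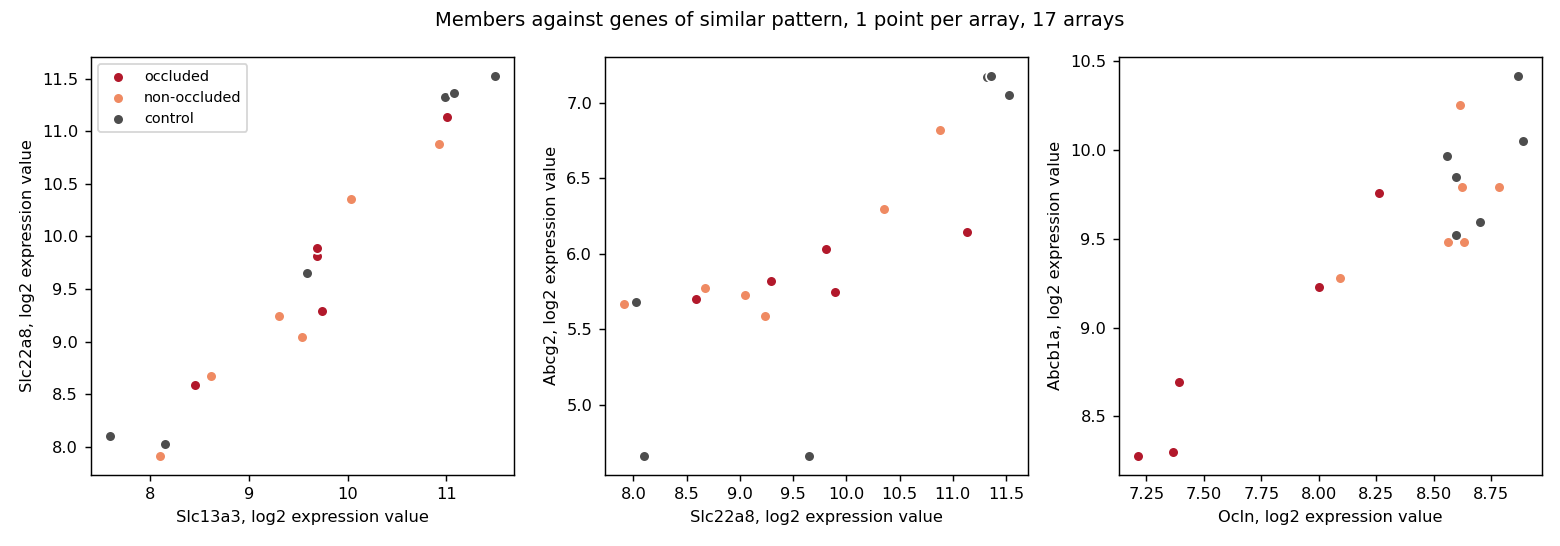
Log2 expression values of Slc22a8 against Slc13a3, Abcg2 against Slc22a8 and Abcb1a against Ocln, with 1 point per array for occluded, non-occluded and control MCAs. Slc22a8 follows Slc13a3 over all groups (r = 0.977), the 3 control arteries high for Slc22a8 are those at 7.06 to 7.18 for Abcg2, and low Abcb1a goes with low Ocln in the occluded MCAs (r = 0.918).

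Cd163 and Fkbp5 were high in both arteries of operated rats. Cd163 averaged 7.37 in occluded and 5.93 in control MCAs (1.44, SE 0.24, adjusted p = 0.000109), and 7.06 in non-occluded MCAs (1.13, SE 0.23, adjusted p = 0.0107). Fkbp5 lay between 9.33 and 9.54 in occluded, 9.11 and 9.76 in non-occluded and 6.86 and 8.54 in control MCAs, with no overlap between operated and control rats. Of all genes, 12.6% lay wholly above control in occluded and 1.35% in non-occluded MCAs. Of the 10 microglia and macrophage markers, 2 were higher (Cd163 and Itgam) and 2 lower in occluded MCAs than in control, and 1 higher in non-occluded MCAs. The shares of all genes were 19.2% higher and 22.9% lower in occluded, and 1.79% higher in non-occluded MCAs. Their summed log2 level was 10.40 to 11.26 in occluded, 10.62 to 11.53 in non-occluded and 10.40 to 11.36 in control MCAs. Their part in the values of Abcc4 and Slc2a1 was not tested.

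Other ABC transporters were mostly lower or not called. In occluded MCAs against control 1 of 15 was higher and 6 lower, with a median log2 difference of -0.27, below that of all genes. For this list and those below, the shares of all genes were 19.2% higher and 22.9% lower in that comparison. They were 1.79% and 2.12% in non-occluded MCAs against control, and 17.1% and 15.8% between the arteries of operated rats. Abcg4, a sterol exporter, fell by 1.82 (SE 0.24, adjusted p = 8.64e-06) and Abcb4, a phospholipid floppase, by 0.43 (SE 0.08, adjusted p = 0.000453). The single one that rose was Abcb1b, the second P-glycoprotein gene of rodents, at 6.03 in occluded and 5.34 in control MCAs (0.69, SE 0.09, adjusted p = 8.03e-05). It was measured in these 2 groups only, and its probe set can share signal with Abcb1a. In non-occluded MCAs 1 of 14 was lower than in control, Abcb4 (-0.30, adjusted p = 0.0438). Between the arteries of operated rats 1 of 14 was higher, the cholesterol exporter Abca1 (0.55, adjusted p = 0.0322), and 3 were lower, with Abcg4 first (-1.67, adjusted p = 3.33e-05).

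Among 14 other organic ion and drug carriers, 2 were higher and 3 lower in occluded MCAs than in control, beside 19.2% and 22.9% of all genes. The nucleoside carrier Slc29a2 rose by 1.49 (SE 0.12, adjusted p = 3.61e-08) and the prostaglandin carrier Slco2a1 by 1.32 (SE 0.34, adjusted p = 0.00453). Slco1c1, the thyroid hormone carrier of brain endothelium, fell by 1.53 (SE 0.40, adjusted p = 0.00463), with all occluded values below all control values, as for 12.6% of all genes. Slc29a2 was also the only one of 14 called in non-occluded MCAs (0.45, adjusted p = 0.0357) and the only one of 15 called between the arteries of operated rats (1.03, adjusted p = 4.33e-06).

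Nutrient carriers of brain endothelium other than the members moved more often upward. Of 25, 10 were higher and 5 lower in occluded MCAs than in control, with a median of 0.09, beside 19.2% and 22.9% of all genes. Against non-occluded MCAs 10 were higher and 4 lower, beside 17.1% and 15.8% of all genes. Slc7a5, the carrier of large neutral amino acids and of drugs such as levodopa, was at 10.66 in occluded and 7.54 in control MCAs (3.12, SE 0.16, adjusted p = 1.21e-10), and Slc7a1, for cationic amino acids, rose by 1.97 (SE 0.13, adjusted p = 3.47e-09). The taurine carrier Slc6a6 fell by 1.63 (SE 0.10, adjusted p = 1.23e-09). Slc6a6 was also the 1 of 25 that was called in non-occluded MCAs (-0.72, SE 0.10, adjusted p = 0.000525).

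Other endocytic and transcytosis receptors, counted together with genes that act with them such as Picalm, Dnm2 and Lrpap1, changed by small steps. In occluded MCAs 6 of 21 were higher and 3 lower than in control, with a median of -0.15, beside 19.2% and 22.9% of all genes. Picalm, a clathrin adaptor, rose by 0.51 (SE 0.07, adjusted p = 9.25e-06) and Dnm2, the dynamin that cuts vesicles from the membrane, by 0.26 (SE 0.04, adjusted p = 0.000111). Lrpap1, the chaperone of Lrp1 and its relatives, fell by 0.51 (SE 0.07, adjusted p = 1.61e-05) in occluded MCAs and by 0.25 (SE 0.07, adjusted p = 0.0447) in non-occluded MCAs. Between the arteries of operated rats 3 of 21 were higher and 2 lower.

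Beside Tfrc, 18 genes of iron uptake and its control were measured, and 4 were higher and 4 lower in occluded MCAs than in control, with a median of -0.01. Of all genes 19.2% were higher and 22.9% lower in this comparison. Slc39a14, which takes up zinc and iron not bound to transferrin, was at 10.59 in occluded and 8.13 in control MCAs (2.46, SE 0.18, adjusted p = 1.08e-08). Slc11a2, which moves the iron that Tfrc brought into endosomes to the cytosol, rose by 0.96 (SE 0.11, adjusted p = 1.66e-06). The related carrier Slc39a8 fell by 0.99 (SE 0.13, adjusted p = 1.06e-05) in occluded MCAs and by 0.65 (SE 0.13, adjusted p = 0.00786) in non-occluded MCAs, where it was the only one of 18 called. Against non-occluded MCAs 4 were higher and 2 lower, among them Hmox1, the enzyme that frees iron from heme, at 8.07 in occluded and 6.77 in non-occluded MCAs (1.30, adjusted p = 0.00116).

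Downstream of Insr, 10 of 27 insulin signaling genes were higher and 8 lower in occluded MCAs than in control, with a median of 0.03. The shares of all genes were 19.2% and 22.9%. Ptpn1, the phosphatase that switches the insulin receptor off, was at 10.38 in occluded and 7.88 in control MCAs (2.50, SE 0.11, adjusted p = 2.24e-11). Pik3r1, a regulatory subunit of phosphoinositide 3-kinase, rose by 0.98 (SE 0.10, adjusted p = 3.31e-07) and the adaptor Shc1 by 0.91 (SE 0.06, adjusted p = 6.92e-09). In non-occluded MCAs 3 of 26 were higher and 3 lower, with Ptpn1 at 0.58 (SE 0.10, adjusted p = 0.00434), Pik3r1 at 0.46 (SE 0.09, adjusted p = 0.00921) and Tsc2, a brake on growth signaling, at -0.20 (SE 0.05, adjusted p = 0.0212). Unlike Insr, Ptpn1 differed between the arteries of operated rats (1.92, SE 0.11, adjusted p = 1.50e-09). Ide, an insulin-degrading protease, was lower on the occluded side (-0.75, SE 0.08, adjusted p = 2.22e-06).

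Wnt and transcription factor genes that induce the barrier were counted as well. In occluded MCAs 2 of 16 were higher than in control and 6 lower, and against non-occluded MCAs 3 were higher and 8 lower, with medians of -0.11 and -0.25. Of all genes 19.2% were higher and 22.9% lower against control, and 17.1% and 15.8% against non-occluded MCAs. The nuclear receptor gene Ppard (1.28, SE 0.07, adjusted p = 4.20e-10) and the Wnt effector Tcf7l2 (0.89, SE 0.07, adjusted p = 3.50e-08) rose against control, and Tcf7l1, a repressor of Wnt targets, fell by 0.92 (SE 0.11, adjusted p = 3.70e-06). Tcf7l2 was the only one of 17 called in non-occluded MCAs (0.37, adjusted p = 0.00683). Of 20 xenobiotic and stress receptor genes known to act on transporter genes, 6 were higher and 6 lower in occluded MCAs than in control. The shares of all genes were again 19.2% and 22.9%. The tumor necrosis factor receptor gene Tnfrsf1a rose by 1.72 (SE 0.09, adjusted p = 1.96e-10) and Hif1a, a factor stabilised at low oxygen, by 1.07 (SE 0.11, adjusted p = 3.26e-07), and the mineralocorticoid receptor gene Nr3c2 fell by 1.48 (SE 0.12, adjusted p = 2.10e-08). In non-occluded MCAs Tnfrsf1a (0.58, adjusted p = 0.00123) and Epas1 (0.27, adjusted p = 0.0456) were higher and Nr3c2 was lower (-0.52, adjusted p = 0.0139).

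**Figure D5:**
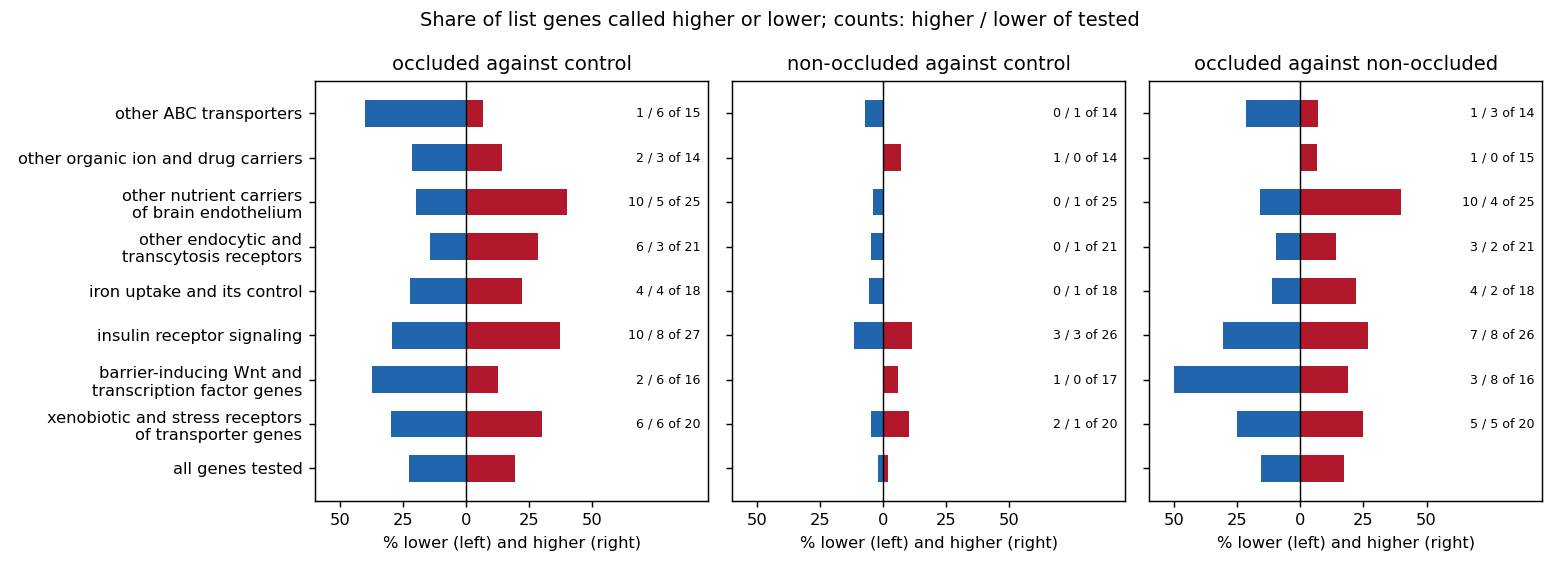
Percent of the measured genes of 8 lists called higher (red, to the right) and lower (blue, to the left) in 3 comparisons, with the counts at the right as higher / lower of measured, and all 13197 genes in the bottom row. The bars of nutrient carriers reach furthest to the right in occluded MCAs (10 of 25), and in non-occluded MCAs no list has more than 3 genes called in either direction.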

How the data were processed

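The authors' deposited log2 expression values were used as given. Per the study's methods, they were made from Affymetrix Rat Gene 2.0 ST arrays by robust multi-array averaging with quantile normalization in Affymetrix Expression Console 1.1.2, and probe sets below the median of the negative controls in most samples were filtered out. The deposited tables differ in the probe sets they hold, so a gene can lack values in 1 group, and quantile normalization hides a shift common to all genes. The deposited tables also hold the authors' fold changes, p-values and scores from significance analysis of microarrays (SAM), which were not used. Of 14143 probe sets, the 13809 present on all arrays entered the fit and the other 334 did not. Probe sets with several symbols (327) were left out of counts. Arrays give no read depth, so precision rests on the number of arrays.

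The comparisons were fitted by limma (version 3.58.1, R 4.3.3) with 1 mean per group over 17 arrays (14 residual degrees of freedom, prior SD 0.141 with 3.48 prior degrees of freedom), two-sided. A list gene measured in 2 groups only was tested in the fit of that table. Replicates are separate rats. The labels name the rat, and same-rat arteries correlated at 0.156 to 0.486 after group means were removed, against -0.294 to 0.327 for the 25 other pairs. The remaining steps used Python 3.11.15 with pandas 2.3.3, numpy 2.4.6 and scipy 1.17.1. The scripts were tested on simulated data. Up to 3 genes per list and comparison, those with the smallest adjusted p among the called ones, were named, and the 3 most correlated genes per member, 1 of which is not reported here. Alternatives were SAM at a q-value of 0 (own implementation, 100 permutations), an ordinary linear model, trend and robust moderation, the rat as random or fixed block, 2 groups alone, median centring, cyclic loess, dropping the dimmest probe sets, the mean of probe sets, stricter thresholds and each array left out. The members and lists were chosen with earlier results of these data known. Positions of promoters are those of GRCr8. No build is named for the array annotation in the sources used here, so its positions are not printed.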

Additional observations from a re-analysis of the deposited data

How the results depend on the processing

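Of the members' log2 differences, all calls of Abcb1a, Abcc4, Insr and Slc2a1 in occluded MCAs against control, and of Tfrc against non-occluded MCAs, kept direction and call under each alternative fit and with each artery left out, but not under SAM. SAM at a q-value of 0 called 0 members higher and 0 lower in occluded MCAs against control (4 and 1 with limma), 1 higher, Insr, in non-occluded MCAs (2 with limma), and 0 and 0 between the arteries (1 and 1 with limma). At 1.5-fold or more, 2 were higher in occluded MCAs and 1 in non-occluded MCAs against control. At adjusted p under 0.01, 0 were higher in non-occluded MCAs and 0 lower between the arteries. With the rat as a fixed replicate block 2 were higher between the arteries, Slc2a1 joining Tfrc (this fit also leaves out the unpaired non-occluded artery of F19), and the block changed no other call of a member. There Slco1a4 was not called with an ordinary model (-0.93, adjusted p = 0.0744) or with trend and robust moderation (adjusted p = 0.0506). Leaving out 1 artery at a time gave 0 to 1 members lower between the arteries.

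Signs turned only in differences that were not called. Between the arteries, Lrp1 was 0.0077 with cyclic loess and Abcg2 0.077 with the fixed block. With 1 artery left out, the differences ran from -0.65 to 0.0521 for Slc22a8, -0.46 to 0.0423 for Abcg2 and -0.17 to 0.0055 for Mfsd2a in occluded MCAs against control, from -0.37 to 0.134 for Abcg2 in non-occluded MCAs, and from -0.0568 to 0.0104 for Lrp1, -0.17 to 0.077 for Abcg2 and -0.13 to 0.0166 for Insr between the arteries.

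Over all genes, limma called 2540 higher and 3017 lower in occluded MCAs against control, SAM 1331 and 1190, and 936 and 880 passed at 1.5-fold. In non-occluded MCAs these counts were 236 and 280, 120 and 107, and 92 and 31, with 84 and 60 at 0.01, 300 and 164 after median centring and 149 and 139 without the non-occluded artery of F15. Between the arteries they were 2259 and 2079, 1117 and 780, and 741 and 481, with 1306 lower at 0.01. The cause of these differences was not tested. With 5 to 6 arteries per group, the intervals hold changes of about 1 unit for Abcg2 and about 2 units for Slc22a8.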
